A study of Mus musculus with 33 samples.

Results

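Colon regulatory T cells (Treg) that carried the TSLP receptor (TSLPR, gene Crlf2) but not the IL-33 receptor ST2 (gene Il1rl1) were compared between mice with colitis-associated cancer and naive mice. The comparison takes every library labelled TSLPR+Il1rl1-, written TSLPR+ST2- here, which is 8 of the 33 libraries of the series: 4 from naive mice (mice 1 to 4) and 4 from cancer mice (mice 5 to 8). All 8 mice carried the Foxp3-yfp reporter on the B6 background, so the reporter is shared by both groups. The cancer mice had received 1 injection of azoxymethane (AOM, a carcinogen, 10 mg/kg) and then 3 cycles of dextran sulfate sodium (DSS, which injures the colon lining) lasting 7 days. They were killed 2 weeks after DSS ended. Any mock treatment of the naive mice, the age at sorting and the sorting days are not stated in the labels, and effects of AOM, of DSS colitis and of tumours cannot be told apart. Each library was made from 200 sorted CD45+TCR+CD4+Foxp3+ cells, and a mouse is the replicate.

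Treg restrain other immune cells and, in the gut, also help repair of the barrier. They depend on the transcription factor Foxp3 and on IL-2 received through CD25 (gene Il2ra) and STAT5. TSLP is an epithelial cytokine that is read through TSLPR paired with the IL-7 receptor alpha chain (gene Il7r), and this pair also signals to STAT5. Type I interferon, in contrast, acts through a transcription factor complex that contains IRF9 and binds a short DNA element in front of interferon-stimulated genes, and IRF7 is both a product and an amplifier of that response.

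Library totals overlapped, at 5283620 to 6297019 counts in the naive group and 5759266 to 6531701 in the cancer group. Other properties of the libraries did not overlap between the groups. The cancer libraries held 15730 to 16455 genes with at least 1 count against 16512 to 16845 in the naive ones, and their share of mitochondrial counts was 1.46% to 1.96% against 1.04% to 1.17%. The nuclear RNA Malat1 stood at 936 to 1053 CPM (counts scaled to equal library totals, here the plain totals) in cancer libraries and 674 to 808 in naive ones. Each of these differences had an exact two-sided permutation p of 0.0286, the smallest that 4 against 4 libraries allow, and 0.0952 after adjustment over 10 measures. Fold changes also moved with the GC content of the transcript: among genes with at least 10 CPM the median log2 fold change went from 0.07 in the fifth of genes with the lowest GC content to -0.11 in the fifth with the highest. The part of these properties in the results on genes was not tested beyond the fits with a mitochondrial covariate and a GC offset. These are named where they changed the call of a gene reported here.

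The RNA of Crlf2 and Il1rl1 followed the sort, with a narrow margin for Crlf2 in the cancer libraries. Crlf2 was at 41.3, 45.5, 36.2 and 41.2 CPM in the naive libraries and at 40.6, 37.6, 37.3 and 32.6 CPM in the cancer libraries, while group means in the TSLPR- gates lay between 10.3 and 21.4 CPM. The highest single library of those gates was at 19.0 CPM in naive and 30.5 CPM in cancer mice, both in TSLPR-ST2+. Il1rl1 had group means of 2.54 (naive) and 3.12 CPM (cancer), against 136 to 216 CPM in the ST2+ gates, and only the library of cancer mouse 6, at 11 CPM, exceeded 5.67. Foxp3 was at 152, 166, 144 and 151 CPM in naive and at 136, 163, 62.2 and 131 CPM in cancer libraries. The low value belongs to mouse 7, and the groups overlapped (log2 fold change -0.31 ± 0.22 SE, edgeR adjusted p = 0.875). The T cell genes Cd3e (704 to 1059 CPM) and Cd4 (286 to 411 CPM) were present in every library.

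Marker transcripts of other cell types were absent for some types and present for others. The neutrophil gene S100a8 and the NK cell gene Ncr1 were at 0 in all 8, and the fibroblast gene Col1a1 was at 0 in 7. The summed level of the 16 macrophage and dendritic cell markers was 1250 to 1504 CPM in naive libraries and 3041, 1152, 2200 and 4169 CPM in those of cancer mice 5, 6, 7 and 8 (exact permutation p = 0.143). All 16 of these markers had a log2 fold change above 0, with a median of 0.70, and H2-Aa, a class II gene of antigen-presenting cells, was at 69.8 to 155 CPM in naive and 159 to 554 CPM in cancer libraries. Summed epithelial markers were at 59.8 to 121 CPM in naive and 116 to 190 CPM in cancer libraries (exact permutation p = 0.0571), with the keratin gene Krt18 at 0 in all naive libraries and at 1.33 to 7.76 CPM in cancer ones. Epcam, an epithelial gene, was at 27.4 to 66.7 CPM over all 8. The sums of the remaining lists overlapped: 1804 to 2179 CPM in naive and 1728 to 2097 CPM in cancer libraries for B and plasma cells, 4.26 to 17.9 and 5.05 to 21.04 CPM for neutrophils and mast cells, 96.7 to 171 and 109 to 163 CPM for stromal and endothelial cells, and 60.6 to 96.0 and 69.1 to 99.8 CPM for CD8, NK and gamma-delta T cells. The part of these cells in the differences below was not tested. In bulk RNA of sorted cells, fewer cells of a state and less RNA per cell cannot be told apart.

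Across 14861 genes, 7 passed the edgeR quasi-likelihood test at an adjusted p under 0.05 (0.0471% of genes tested): 4 were higher in cancer (0.0269%) and 3 lower (0.0202%). At an unadjusted p under 0.05, 429 genes (2.89%) were higher and 671 (4.52%) lower. When the GC trend of each library was added to the fit, an alternative chosen after seeing the data, this split became 549 higher and 499 lower. The 4 cancer libraries lay all above the 4 naive ones for 439 genes (2.95%) and all below for 597 (4.02%). DESeq2, a second count model, called 87 genes (0.588%), 36 higher and 51 lower. Below, a called gene and the threshold refer to edgeR unless DESeq2 is named. limma-voom called 11 with or without the mouse as a replicate block. The calls were few and depended on single mice. Leaving out 1 mouse, with its libraries of all 4 gates, gave between 0 and 18 calls, and the 18 came without cancer mouse 6.

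The 4 genes that rose encode proteins of unlike function. Tspan13 (chromosome 12, 36014557 to 36042500, minus strand, GRCm38) encodes a tetraspanin, a membrane protein of the family that organises receptor clusters. It was at 328, 288, 331 and 328 CPM in naive and 430, 493, 501 and 511 CPM in cancer libraries, 1.52-fold higher (log2 0.60 ± 0.11 SE, edgeR adjusted p = 0.028). Every cancer library stood above every naive one by a clear margin. Among 18 tested tetraspanin genes, Cd9 was the other one with a low unadjusted p, at 73.6 to 91.2 CPM in naive and 102 to 119 CPM in cancer libraries (log2 0.41 ± 0.15, edgeR adjusted p = 0.55), and the list's median log2 fold change was -0.07.

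Cdk19 (chromosome 10, 40339564 to 40483818, plus strand), a kinase of the Mediator complex that links transcription factors to RNA polymerase II, showed the largest fold of the 7 genes. It was at 19.5, 33.5, 23.01 and 22.2 CPM in naive and 52.0, 72.9, 73.0 and 65.2 CPM in cancer libraries, 2.68-fold higher (log2 1.42 ± 0.27, edgeR adjusted p = 0.028). The rest of Mediator did not go with it: of 20 tested members of the complex, 1 was higher and 4 lower at an unadjusted p under 0.05. Med14, the backbone subunit, was at 163, 144, 107 and 150 CPM in naive and 80.1, 65.2, 67.6 and 79.5 CPM in cancer libraries (log2 -0.95 ± 0.23, edgeR adjusted p = 0.146), so its groups did not overlap although it missed the threshold. In DESeq2 it passed (adjusted p = 0.0189). Med16 (log2 -0.93 ± 0.39) and Med15 (log2 -0.64 ± 0.29), both tail subunits, had edgeR adjusted p values of 0.641 and 0.661.

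H2-Q6 (chromosome 17, 35424850 to 35430055, plus strand) is one of the near-identical nonclassical MHC class I genes of the Q region, which makes the assignment of reads to it uncertain. Its level was 646, 679, 606 and 606 CPM in naive and 955, 921, 888 and 772 CPM in cancer libraries, 1.39-fold higher (log2 0.48 ± 0.09, edgeR adjusted p = 0.028). Its neighbours gave unlike values: H2-Q7 was at 967 to 1052 CPM in naive and 1080 to 1265 CPM in cancer libraries (log2 0.21 ± 0.09, edgeR adjusted p = 0.658), while H2-Q4 was at 21.8 to 27.7 and 10.2 to 19.2 CPM (log2 -0.66 ± 0.29, edgeR adjusted p = 0.661). Of 23 tested class I and antigen-processing genes, 2 were higher and 4 lower at an unadjusted p under 0.05. Tap1, a subunit of the transporter that feeds peptides to class I molecules, was among the lower ones (log2 -0.49 ± 0.21, edgeR adjusted p = 0.658).

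Stip1 (chromosome 19, 7020702 to 7039967, minus strand) encodes the co-chaperone that hands client proteins from HSP70 to HSP90. It was at 513, 457, 484 and 440 CPM in naive and 641, 652, 606 and 736 CPM in cancer libraries, 1.39-fold higher (log2 0.48 ± 0.09, edgeR adjusted p = 0.0475). Of 30 tested HSP90, HSP70 and co-chaperone genes, 7 were higher and 0 lower at an unadjusted p under 0.05, with a median log2 fold change of 0.13 against 0.00 over all genes, and 1 of them, Stip1, was called. Chordc1, an HSP90 co-chaperone, was at 282, 228, 283 and 249 CPM in naive and 316, 344, 366 and 338 CPM in cancer libraries (log2 0.39 ± 0.10, edgeR adjusted p = 0.259). The HSP70 partner Dnaja1 was at 382 to 428 CPM in naive and 467 to 538 CPM in cancer libraries (log2 0.29 ± 0.09, edgeR adjusted p = 0.461). For all 7 of these genes the groups did not overlap, while 2.95% of all genes had all cancer libraries above all naive ones. The 7 were picked by a small p in these same libraries, so this is no separate support. DESeq2 called 2 of the 30, Stip1 and Chordc1 (DESeq2 adjusted p = 0.0181), against 0.588% of all genes. Of the 8 subunits of the cytosolic chaperonin, 1 (Tcp1, log2 0.27 ± 0.13, edgeR adjusted p = 0.661) had an unadjusted p under 0.05.

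**Figure D1:**
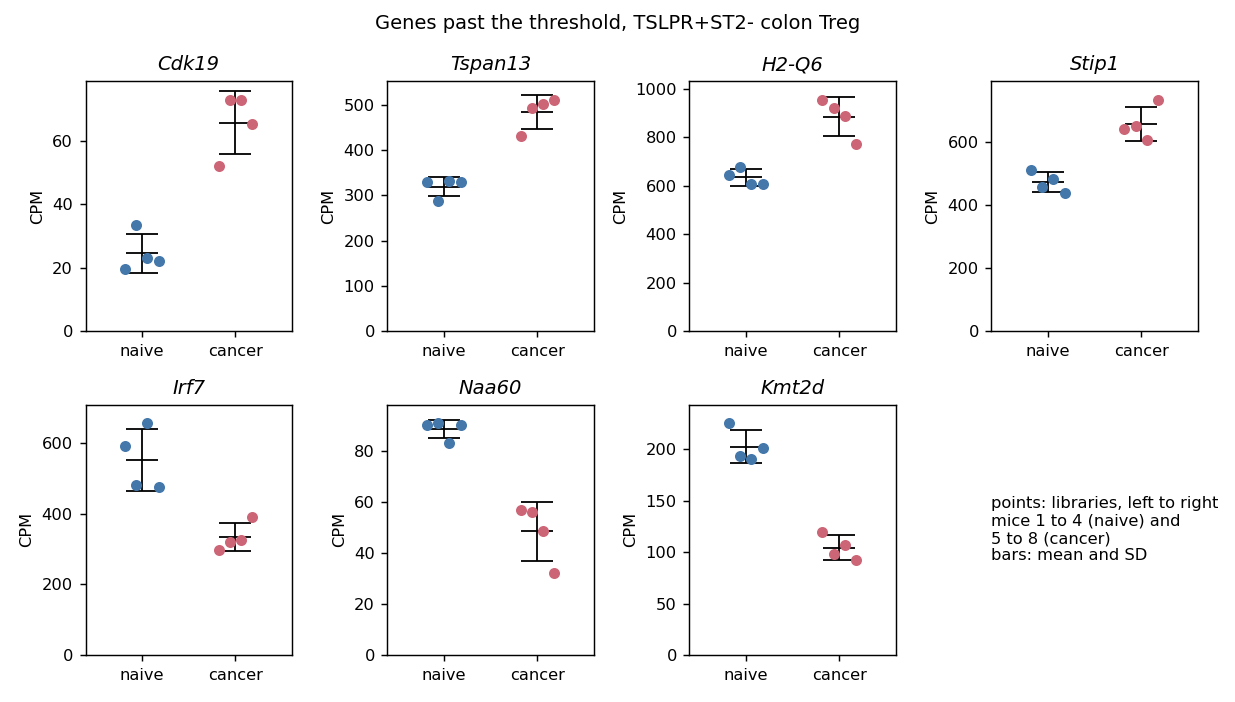
Level in CPM (vertical axis, from 0) of the 7 genes past the threshold in naive and cancer TSLPR+ST2- libraries. Each point is a library and the bars give the mean and SD of 4. In every panel the points of the groups do not overlap, from 52.0 to 73.0 against 19.5 to 33.5 CPM for Cdk19 to 92.3 to 120 against 191 to 225 CPM for Kmt2d.

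The 3 genes that fell were Kmt2d, Naa60 and Irf7. Kmt2d (chromosome 15, 98831669 to 98871204, minus strand) encodes a histone H3 lysine 4 methyltransferase of enhancers. It was at 225, 193, 191 and 201 CPM in naive and 120, 98.7, 107 and 92.3 CPM in cancer libraries, 1.94-fold lower (log2 -0.96 ± 0.17, edgeR adjusted p = 0.028). Kmt2a, a related methyltransferase, was at 196, 140, 171 and 207 CPM in naive and 298, 287, 279 and 159 CPM in cancer libraries (log2 0.52 ± 0.17, edgeR adjusted p = 0.467). In Kmt2a, cancer mouse 8 lay inside the naive range. Over 18 tested genes of these complexes and the H3K27 demethylases, 2 were higher and 2 lower at an unadjusted p under 0.05. With 10 of the 18 below 0 and a median of -0.12, the list showed no clear direction.

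Naa60 (chromosome 16, 3872375 to 3904780, plus strand) encodes an N-terminal acetyltransferase of the Golgi. It was at 89.9, 90.8, 83.0 and 89.9 CPM in naive and 56.8, 56.0, 48.6 and 32.1 CPM in cancer libraries, 1.83-fold lower (log2 -0.87 ± 0.16, edgeR adjusted p = 0.028). The naive libraries were tight and mouse 8 was the lowest of the cancer libraries. None of the other 10 tested genes of this enzyme family had an unadjusted p under 0.05. With the GC trend in the fit, Kmt2d (adjusted p = 0.16), Naa60 (0.075) and Irf7 (0.16) missed the edgeR threshold, and the 4 genes that rose passed it. With the mitochondrial share as a covariate, Tspan13 (0.035) and H2-Q6 (3e-05) passed, while Cdk19 (0.072), Stip1 (0.12), Kmt2d (0.072), Naa60 (0.097) and Irf7 (0.083) did not. The fold changes of the lost genes stayed close to those above: with this covariate the log2 values were 1.39 for Cdk19, 0.43 for Stip1, -0.93 for Kmt2d, -0.73 for Naa60 and -0.68 for Irf7. With the GC trend they were -0.78 for Kmt2d, -0.75 for Naa60 and -0.58 for Irf7.

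Genes of the type I interferon response were lower as a group. Irf7 (chromosome 7, 141262706 to 141266481, minus strand) was at 591, 482, 655 and 474 CPM in naive and 297, 319, 326 and 389 CPM in cancer libraries, 1.65-fold lower (log2 -0.73 ± 0.14, edgeR adjusted p = 0.028). It passed in 0 of the fits that left out 1 mouse (edgeR adjusted p from 0.059 to 0.229), and the other called genes passed in 1 or 2. Of 39 tested genes in the list, 37 had a log2 fold change below 0 (49.7% of all genes tested did), 15 were lower and 0 higher at an unadjusted p under 0.05, and edgeR called 1, Irf7, while DESeq2 called 4 lower. The list's median log2 fold change was -0.50 (-0.49 with the GC trend in the fit), and in 17 of the 39 all cancer libraries lay below all naive ones, as in 4.02% of all genes. Since the list was chosen with earlier results of these data known, its direction is a description.

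Below Irf7 the members with the smallest p were effectors. Isg15, a ubiquitin-like modifier, was at 164, 173, 196 and 154 CPM in naive and 84.1, 83.7, 65.6 and 129 CPM in cancer libraries (log2 -0.92 ± 0.21, edgeR adjusted p = 0.138). Rsad2, which encodes the antiviral enzyme viperin, was at 54.2, 61.8, 96.5 and 73.4 CPM in naive and 19.7, 40.2, 7.40 and 25.9 CPM in cancer libraries (log2 -1.62 ± 0.38, edgeR adjusted p = 0.146). Trim30a was at 348 to 429 CPM in naive and 233 to 281 CPM in cancer libraries (log2 -0.57 ± 0.14, edgeR adjusted p = 0.176). Groups did not overlap in any of these. None passed in edgeR, whereas all 3 passed in DESeq2 (adjusted p = 0.0135 for Isg15, 0.0089 for Rsad2 and 0.0296 for Trim30a).

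The size of the difference varied within the list, and the 2 members above 0 were Ifi44 (9.17 CPM on average in naive and 23.6 CPM in cancer libraries, log2 1.36 ± 0.99, edgeR adjusted p = 0.903) and Phf11d (2.15 and 2.31 CPM, log2 0.10 ± 1.32, edgeR adjusted p = 1.00). Irf9, a subunit of the factor that transmits the signal, was at 460 CPM on average in naive and 418 CPM in cancer libraries (log2 -0.14). These 3 were named after their values were seen. The 12 tested IFI200 genes, which encode DNA-binding proteins, held 4 lower and 0 higher members at an unadjusted p under 0.05, Ifi206 leading (383, 527, 578 and 405 CPM against 266, 366, 277 and 294 CPM, log2 -0.65 ± 0.18, edgeR adjusted p = 0.278), but 6 of the 12 had a log2 fold change above 0. Among 17 interferon-inducible GTPases, Gbp4 was lower (log2 -0.40 ± 0.14, edgeR adjusted p = 0.469) and Gbp2 higher (log2 0.44 ± 0.20, edgeR adjusted p = 0.661). Ifi27l2a, an abundant interferon-induced mitochondrial protein gene, was at 1411 to 1507 CPM in naive and 1019 to 1134 CPM in cancer libraries (log2 -0.49 ± 0.11, edgeR adjusted p = 0.115). It passed in edgeR with the mitochondrial share as a covariate (adjusted p = 0.0031) and in DESeq2 (adjusted p = 0.0075).

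The core of the interferon-stimulated response element, GAAA followed after any 2 bases by a second GAAA, was searched on both strands in the 250 bases before the RefSeq gene start (GRCm38.p6). Of 30 list genes with a RefSeq promoter 12 (40.0%) held a match, against 936 of 27025 genes (3.46%) over all. For the leading genes that held a match, a window is shown because it is the element by which the pathway is defined, with the match in capitals and the strand of the gene. Overlapping matches are possible, and Isg15 holds 3 of which the middle is shown. In Rsad2 and Trim30a the match lies on the other strand and reads as TTTC, 2 bases and TTTC in the printed direction.
Isg15, 4:156200871-156200900, minus strand: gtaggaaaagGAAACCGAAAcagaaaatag
Rsad2, 12:26456553-26456582, minus strand: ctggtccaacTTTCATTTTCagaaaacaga
Trim30a, 7:104465210-104465239, minus strand: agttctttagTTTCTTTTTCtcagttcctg
These matches begin 72, 120 and 36 bases before the gene start. No match lies in the window of Irf7, which says only that these letters are not in it. A match is a description and not a measured binding site.

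**Figure D2:**
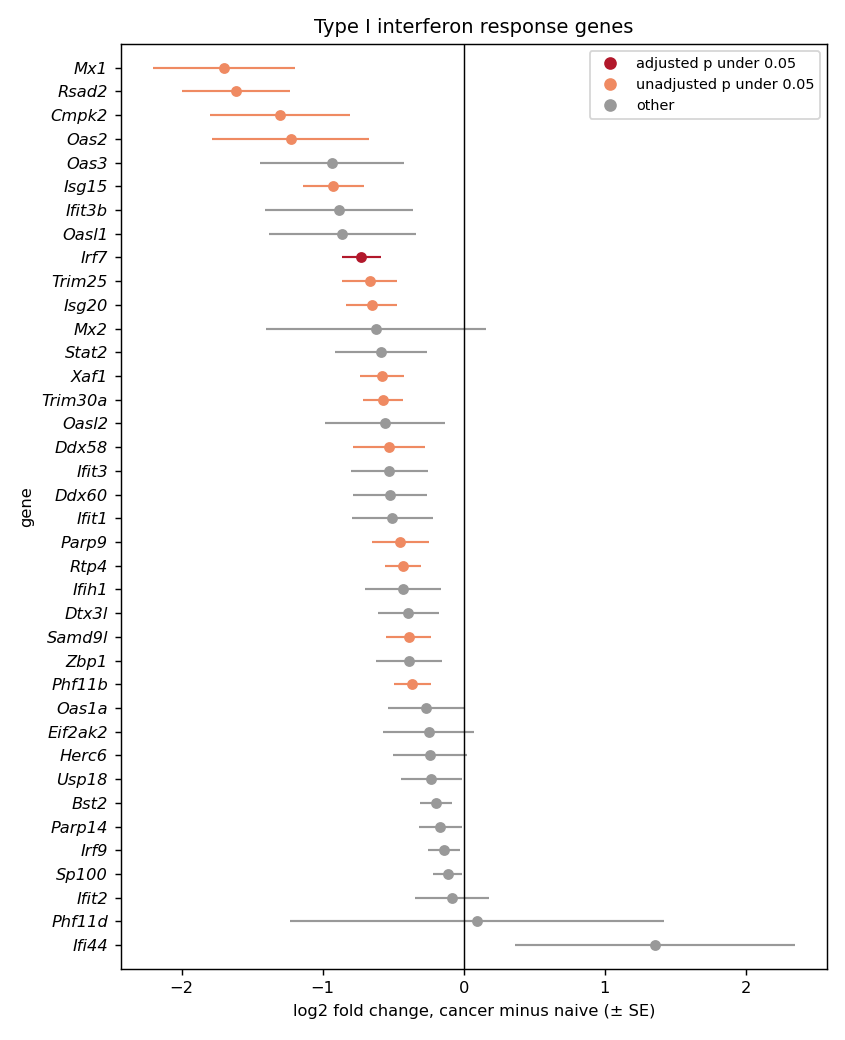
Log2 fold change, cancer minus naive, with its SE (horizontal axis) for 38 of the 39 tested type I interferon response genes (vertical axis), coloured by test, with 1 member below 0 not drawn. Irf7 is the gene past the adjusted threshold, and 36 of the 38 points lie left of 0.

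Genes of DNA replication and division had the lowest median of the 30 lists. Of 30 tested genes, 29 had a log2 fold change below 0, against 49.7% of all genes, and the median was -0.86. At an unadjusted p under 0.05, 8 were lower and 0 higher, against 4.52% and 2.89% of all genes. None was called by edgeR, and DESeq2, which called 0.588% of all genes, called 1. Mcm4, a subunit of the replicative helicase, was at 191, 332, 185 and 246 CPM in naive and 166, 130, 138 and 98.7 CPM in cancer libraries (log2 -0.84 ± 0.22, edgeR adjusted p = 0.259). Mcm6, of the same helicase, was at 449 to 528 CPM in naive and 246 to 343 CPM in cancer libraries (log2 -0.64 ± 0.19, edgeR adjusted p = 0.364). Mki67, the marker of cycling cells, was at 45.5, 72.7, 80.1 and 61.5 CPM in naive and 16.0, 17.7, 34.5 and 16.3 CPM in cancer libraries (log2 -1.62 ± 0.61, edgeR adjusted p = 0.558). The spread within groups was wide for this list, with a median log2 level against the naive mean of -0.54 in naive mouse 1 and -0.41 in cancer mouse 7.

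Genes of glucose and sterol metabolism were lower by smaller amounts. Over all genes, 49.7% had a log2 fold change below 0 and 4.52% were lower at an unadjusted p under 0.05. Of 22 tested glycolysis and HIF genes, 20 had a log2 fold change below 0 with a median of -0.27, and 4 were lower at an unadjusted p under 0.05. With the GC trend in the fit that median was -0.13. Ldha, which makes lactate, was at 1641 to 1852 CPM in naive and 1164 to 1607 CPM in cancer libraries (log2 -0.36 ± 0.12, edgeR adjusted p = 0.467). Of 24 cholesterol synthesis genes, 21 were below 0 with a median of -0.39, and 3 were lower at an unadjusted p under 0.05. The groups overlapped at the level of this list, with a median log2 level against the naive mean of -0.40 in naive mouse 1 and -0.24 in cancer mouse 6. Srebf2, the transcription factor that drives these genes, was at 111 to 127 CPM in naive and 59.2 to 79.6 CPM in cancer libraries (log2 -0.78 ± 0.30, edgeR adjusted p = 0.582).

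Immediate-early factors that follow T cell receptor (TCR) signals were lower in most cancer libraries, but not in all. Of 29 tested AP-1, NR4A and EGR genes and their companions, 22 had a log2 fold change below 0 and the median was -0.34. At an unadjusted p under 0.05, 8 were lower and 0 higher, against 4.52% and 2.89% of all genes. DESeq2 called 3, all lower, against 0.588% of all genes. These were Zfp36 (DESeq2 adjusted p = 0.0076), Junb (0.0101) and Jun (0.013). Junb was at 687, 617, 548 and 594 CPM in naive and 360, 604, 290 and 353 CPM in cancer libraries (log2 -0.60 ± 0.14, edgeR adjusted p = 0.138). Zfp36, which encodes an RNA-decay factor induced with them, was at 237, 205, 260 and 239 CPM in naive and 132, 211, 109 and 127 CPM in cancer libraries (log2 -0.70 ± 0.15, edgeR adjusted p = 0.105). In both, cancer mouse 6 lay within the naive range and the other 3 below it. Among 20 members at or above 10 CPM with a log2 fold change below 0, the library of mouse 6 was the highest of the cancer libraries in 16. This was not limited to the AP-1 list. By the same count, mouse 6 was highest in 11 of 16 cytokine receptor genes, 11 of 15 TCR components and 8 of 11 Treg core genes. It was highest in 8 of 37 interferon genes and 4 of 28 proliferation genes. The library of mouse 6 also had the lowest macrophage and dendritic cell marker sum of the cancer libraries, 1152 CPM. The part of those cells in the AP-1 values was not tested. Jun differed from Junb and Zfp36, with no overlap between groups (107, 58.4, 79.3 and 75.5 CPM against 44.1, 25.3, 21.9 and 28.1 CPM, log2 -1.42 ± 0.34, edgeR adjusted p = 0.146).

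**Figure D3:**
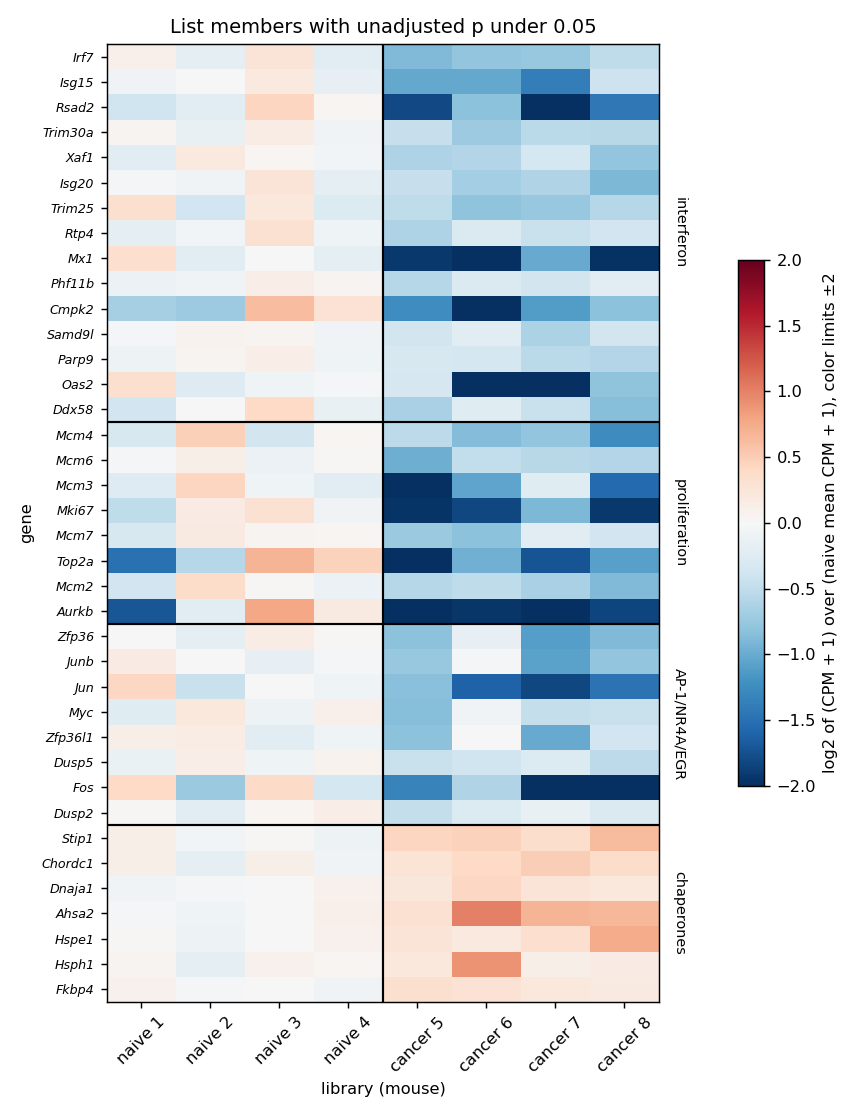
Members of the lists for interferon response, proliferation, AP-1/NR4A/EGR factors and chaperones with an unadjusted p under 0.05 (rows) in the 8 libraries (columns). The color is log2 of (CPM + 1) over (naive mean CPM + 1), blue for lower and red for higher than the naive mean. The column of cancer mouse 6 is near the naive level for Junb (604 CPM) and Zfp36 (211 CPM) but not for Jun (25.3 CPM) or the interferon genes.

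Components of the TCR pathway upstream of these factors were not uniformly lower. Zap70, the kinase that binds the activated receptor, was at 269, 293, 256 and 272 CPM in naive and 173, 203, 183 and 178 CPM in cancer libraries (log2 -0.56 ± 0.11, edgeR adjusted p = 0.053), just outside the threshold with no overlap. With the GC trend in the fit its edgeR adjusted p was 0.57. Zap70 passed in DESeq2 (adjusted p = 0.0014) and in limma-voom with the replicate block (adjusted p = 0.042). Cd5, which dampens receptor signals, was at 584 to 625 CPM in naive and 364 to 540 CPM in cancer libraries (log2 -0.46 ± 0.13, edgeR adjusted p = 0.329). The adaptor Lat went the other way, at 643 to 745 and 692 to 887 CPM (log2 0.25 ± 0.09, edgeR adjusted p = 0.552). Of the 24 tested components, 1 was higher and 5 lower at an unadjusted p under 0.05, and the median was -0.08.

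The Treg lists held no gene called by edgeR, which says little in lists this short, since edgeR called 0.0471% of all genes. DESeq2, which called 0.588% of all genes, called 1 lower Treg core gene (Il2ra, DESeq2 adjusted p = 0.0204) and 1 higher effector tissue Treg gene (Id2, DESeq2 adjusted p = 0.0101). Of 14 tested Treg core genes, 3 were lower and 0 higher at an unadjusted p under 0.05, against 4.52% and 2.89% of all genes. The median log2 fold change was -0.14. Il2ra, which encodes CD25, was at 660, 785, 673 and 647 CPM in naive and 507, 478, 410 and 402 CPM in cancer libraries (log2 -0.62 ± 0.15, edgeR adjusted p = 0.162), with no overlap. Gpr83 (log2 -0.51 ± 0.20, edgeR adjusted p = 0.57) and Lrrc32, which anchors latent TGF-beta (log2 -0.62 ± 0.28, edgeR adjusted p = 0.661), were the other 2. Of 20 effector tissue Treg genes, 1 was higher and 1 lower at an unadjusted p under 0.05. Among them Id2, an inhibitor of E proteins, was at 98.4, 78.8, 80.5 and 117 CPM in naive and 162, 180, 174 and 222 CPM in cancer libraries (log2 0.98 ± 0.23, edgeR adjusted p = 0.146).

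The partner chains of cytokine receptors did not move one way. Il7r, the chain that pairs with TSLPR, was at 167, 213, 139 and 244 CPM in naive and 294, 337, 377 and 288 CPM in cancer libraries (log2 0.77 ± 0.18, edgeR adjusted p = 0.146), so all cancer libraries were above all naive ones, while Crlf2 overlapped (log2 -0.15 ± 0.26, edgeR adjusted p = 1.00). The 95% interval of the Crlf2 difference was -0.68 to 0.37. Il7r passed in DESeq2 (adjusted p = 0.0089). Jak3, the kinase of the common gamma chain, was at 202 to 238 CPM in naive and 82.7 to 186 CPM in cancer libraries (log2 -0.75 ± 0.29, edgeR adjusted p = 0.582), and Il6st, the shared chain of the IL-6 family, was at 197 to 302 and 131 to 165 CPM (log2 -0.63 ± 0.25, edgeR adjusted p = 0.61). Of 21 tested receptor and Janus kinase genes, 1 was higher and 3 lower at an unadjusted p under 0.05, with a median of -0.21. Of 14 STAT5 targets, 3 were lower and 0 higher, with a median of -0.27, among them the feedback gene Socs2 (162 to 187 CPM in naive, 97.5 to 155 CPM in cancer, log2 -0.58 ± 0.20, edgeR adjusted p = 0.481).

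Single genes of other lists are given next, none of which passed in edgeR. In DESeq2, Casp1 (adjusted p = 0.0478) and Lgals9 (adjusted p = 0.0116) passed. Ccr4, a homing receptor also counted in the Th2 list, was at 156, 120, 123 and 186 CPM in naive and 63.5, 74.4, 62.4 and 63.5 CPM in cancer libraries (log2 -1.15 ± 0.34, edgeR adjusted p = 0.354). Casp1, the inflammasome protease, was at 26.8, 49.7, 38.9 and 21.2 CPM in naive and 86.7, 100, 98.4 and 68.9 CPM in cancer libraries (log2 1.37 ± 0.38, edgeR adjusted p = 0.297). Tgfb1, a suppressive cytokine of Treg, was at 74.3 to 106 CPM in naive and 41.7 to 78.0 CPM in cancer libraries (log2 -0.74 ± 0.20, edgeR adjusted p = 0.278). Lgals9, which encodes a galectin, was at 612 to 753 CPM in naive and 500 to 569 CPM in cancer libraries (log2 -0.44 ± 0.10, edgeR adjusted p = 0.138). Except for Tgfb1, where mouse 6 reached the naive range, the groups did not overlap in these genes. Of 14 inhibitory receptors 1 was higher and 1 lower at an unadjusted p under 0.05, and of 13 costimulation genes 0 were higher and 2 lower.

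The lists for T cell states and tissue behaviour are given next. Over all genes, 2.89% were higher and 4.52% lower at an unadjusted p under 0.05. In lists this short, counts of 0 or 1 say little. At an unadjusted p under 0.05, the 28 tested homing receptors and integrins held 0 higher and 3 lower members (median log2 fold change -0.08), the 14 suppressive and repair products 0 and 1 (median -0.26, with 11 of the 14 below 0), and the 12 genes of naive and central T cells 1 and 0 (median 0.01), the 1 being Il7r. The 11 genes of colon peripheral Treg and Th17 cells (median 0.12) and the 13 of the IL-1 receptor family (median -0.06) held none. The 5 tested Th2 genes held 0 higher and 1 lower member (median -0.59), Ccr4. Of the 11 tested Th1 genes (median 0.27), 1 was higher and 1 lower. Stat4, which transmits IL-12, was at 87.3 to 98.4 CPM in naive and 98.5 to 140 CPM in cancer libraries (log2 0.34 ± 0.16, edgeR adjusted p = 0.661). Tbx21, the Th1 master factor, was at 8.34, 4.95, 1.77 and 2.01 CPM in naive libraries and at 0.296 CPM in mouse 5 and 0 in the other cancer libraries (edgeR adjusted p = 0.468). Such counts are few, and no fold is given for Tbx21. Of 15 caspase and inflammasome genes, 14 were tested and 1 was higher and 1 lower (median 0.10).

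Several of the genes with the smallest p bear on RNA handling and cell shape. Cdc42ep3, an effector of the cytoskeletal switch Cdc42, was at 14.2, 25.3, 20.1 and 15.9 CPM in naive and 63.5, 35.5, 34.8 and 49.2 CPM in cancer libraries (log2 1.28 ± 0.26, edgeR adjusted p = 0.0608). The RNA helicase gene Ddx17 was at 71.4 to 101 CPM in naive and 117 to 159 CPM in cancer libraries (log2 0.83 ± 0.18, edgeR adjusted p = 0.0841), and the splicing factor gene Mbnl1 at 612 to 661 and 741 to 882 CPM (log2 0.36 ± 0.08, edgeR adjusted p = 0.128). Lower values were seen for Fcho1, an endocytosis gene, at 157 to 214 CPM in naive and 71.8 to 127 CPM in cancer libraries (log2 -0.94 ± 0.19, edgeR adjusted p = 0.0536), and for the RNA-binding gene Ewsr1 at 438 to 476 and 192 to 361 CPM (log2 -0.84 ± 0.19, edgeR adjusted p = 0.138). In all 5 the groups did not overlap, and all 5 passed in DESeq2. They were named by their small p and not as a theme. With the mitochondrial share as a covariate, Mbnl1 also passed the edgeR threshold (adjusted p = 0.0031).

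Mitochondrially encoded genes were higher in all cancer libraries. All 9 tested had a log2 fold change above 0, with a median of 0.55, and 7 had an unadjusted p under 0.05, against 2.89% of all genes that were higher. mt-Nd5, a subunit of respiratory complex I, was at 723 to 786 CPM in naive and 994, 1038, 1210 and 1520 CPM in cancer libraries (log2 0.67 ± 0.19, edgeR adjusted p = 0.316). This is the same quantity as the mitochondrial share of the libraries given above. With the mitochondrial share as a covariate, 5 genes were called, among them Tspan13, H2-Q6, Mbnl1 and Ifi27l2a. The direction of the interferon, proliferation and AP-1 medians was kept under every alternative fit listed in the closing section.

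**Figure D4:**
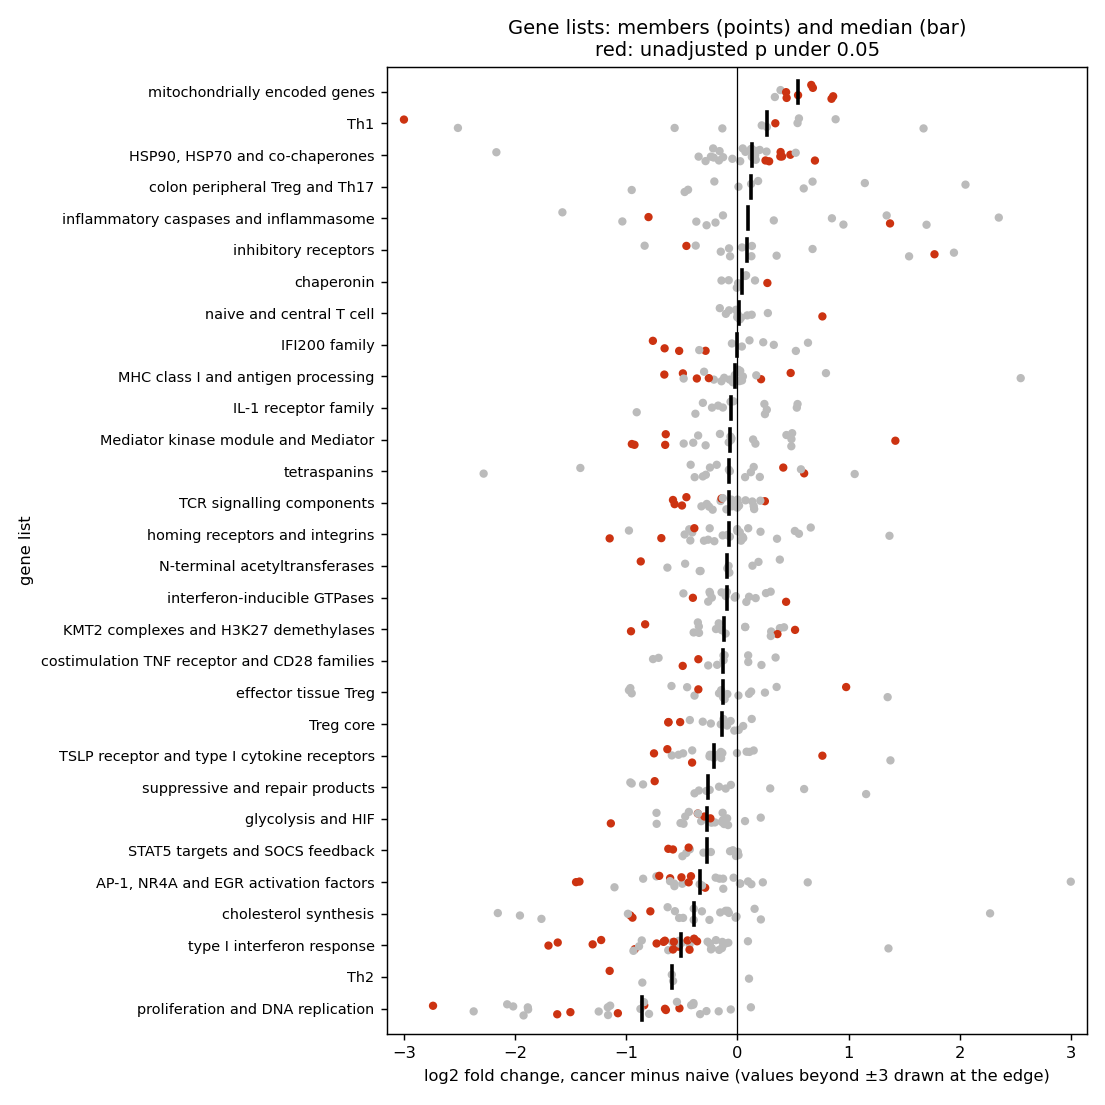
Log2 fold change, cancer minus naive (horizontal axis), of the tested members of 30 gene lists (points), with each list's median as a bar and members with an unadjusted p under 0.05 in red. The medians run from -0.86 for proliferation to 0.55 for mitochondrially encoded genes, and the interferon list stands at -0.50.

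The same cancer minus naive contrast was fitted in the 3 other gates of the same mice, TSLPR-ST2-, TSLPR-ST2+ and TSLPR+ST2+. The 3 gates gave 31 (0.209%), 30 (0.202%) and 618 (4.16%) called genes. The difference between the effect in TSLPR+ST2- cells and the mean of the other 3 effects was tested for each gene, and edgeR called 0 (0.00%), with 529 (3.56%) at an unadjusted p under 0.05, while DESeq2 called 23. With the mouse as a replicate block, edgeR also called 0. No gene is therefore shown by edgeR to change in a way particular to the TSLPR+ST2- gate.

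Side by side, the 7 called genes showed different patterns over the gates, which were sorted from the same 8 animals. Irf7 was lower in all 4 gates, with log2 fold changes of -0.98 ± 0.14, -0.80 ± 0.14 and -0.68 ± 0.14 in the other 3 and edgeR adjusted p values of 0.000629, 0.00825 and 0.00573. Kmt2d was also below 0 in all 4, at -0.60 ± 0.17, -0.82 ± 0.17 and -0.97 ± 0.18 in TSLPR-ST2-, TSLPR-ST2+ and TSLPR+ST2+. Its edgeR adjusted p values there were 0.296, 0.0324 and 0.00236. Naa60 stood at 0.05 ± 0.16 and -0.07 ± 0.16 in the TSLPR- gates and at -0.56 ± 0.16 in TSLPR+ST2+, and Cdk19 at 0.24 ± 0.26, 0.13 ± 0.26 and 0.95 ± 0.26. Both were also called in TSLPR+ST2+, with edgeR adjusted p values of 0.0449 for Naa60 and 0.038 for Cdk19. The tests of the difference from the mean of the other gates gave -0.67 ± 0.19 for Naa60 (unadjusted p = 0.00117) and 0.98 ± 0.30 for Cdk19 (unadjusted p = 0.0029), both with an edgeR adjusted p of 1.00. H2-Q6 stood at 0.53 ± 0.09, 0.34 ± 0.09 and -0.15 ± 0.09, and its difference of 0.24 ± 0.10 had an unadjusted p of 0.0281 and an edgeR adjusted p of 1.00. In the other gates its edgeR adjusted p values were 0.00418, 0.113 and 0.367, so it was also called in TSLPR-ST2-. Stip1 stood at 0.45 ± 0.09, 0.37 ± 0.09 and 0.16 ± 0.09, and it was also called in TSLPR-ST2- (edgeR adjusted p = 0.0336). Tspan13 stood at 0.26 ± 0.11, 0.36 ± 0.11 and 0.25 ± 0.11, with edgeR adjusted p values of 0.623, 0.193 and 0.177.

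**Figure D5:**
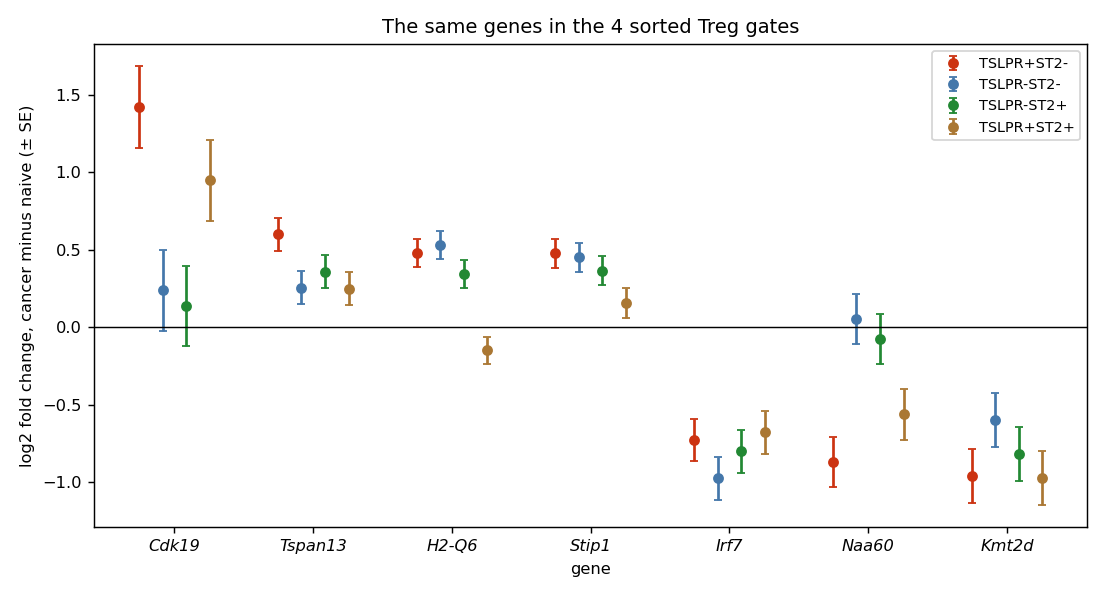
Log2 fold change, cancer minus naive, with its SE (vertical axis) of the 7 called genes (horizontal axis) in the 4 Treg gates (colors). Irf7 and Kmt2d lie below 0 in every gate. Naa60 is at 0.05 and -0.07 in the TSLPR- gates, at -0.56 in TSLPR+ST2+ and at -0.87 in TSLPR+ST2-.

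The medians of lists are also given for all 4 gates. The interferon median was -0.50 in TSLPR+ST2- and -0.75, -0.52 and -0.46 in TSLPR-ST2-, TSLPR-ST2+ and TSLPR+ST2+, with 38, 36 and 33 of 39 members below 0. The proliferation median was -0.86 in TSLPR+ST2- against -0.44, -0.12 and -0.41, and 2 of its 30 members had an unadjusted p under 0.05 for the difference between gates. Mcm4 is 1 of them, with a difference of -0.68 ± 0.25 (unadjusted p = 0.011, edgeR adjusted p = 1.00). The AP-1, NR4A and EGR median was -0.34 against -0.28, -0.35 and -0.41.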

How the data were processed

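The deposited table holds raw counts per Ensembl gene, made by the authors: 53465 rows, 53274 of them with a symbol, and 33 columns, each mapped to a library. Per the labels' protocols, SMART-Seq v4 cDNA and Nextera XT libraries, which do not mark strand, were read as 58-base single reads, so overlapping antisense genes cannot be told apart. Per the submitters' processing notes, the build is GRCm38 and the tools include SAMtools 1.2, FastQC 0.11.3, Picard 1.134 and HTSeq 0.4.1. No source used here names an aligner.

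Genes were tested on counts with edgeR 4.0.16 (R 4.3.3): TMM scaling, filterByExpr (minimum count 10, minimum total 15), a robust quasi-likelihood fit of the 8 groups of 32 Treg libraries, and Benjamini-Hochberg adjustment over 14861 genes at 0.05. CPM use TMM-scaled totals, or plain totals for library measures. Gene positions are from GENCODE M21. The text names Foxp3, Crlf2 and Il1rl1, the called genes, the 12 genes of smallest p in each direction that reach 10 CPM in a group, and up to 4 members per list, of which some are not reported here. The comparison, the 30 programme lists, 6 other-cell lists and the naming rule were chosen with earlier results of these data known. Lists are described by counts and medians, with no test of the set. Library measures were compared by exact permutation. Alternatives were RLE size factors, no low-count filter, only the 8 libraries, each mouse left out, thinned libraries, a mitochondrial covariate, DESeq2 1.42.0, limma-voom 3.58.1 with and without the mouse as a block and, added after seeing the data, a GC offset. The scripts were tested on simulated data. Deviations of same-mouse libraries from their group means had a mean correlation of -0.00613 over 24 pairs. Within a group each library comes from another mouse, so p-values measure the spread between mice together with that between their libraries. In the main fit this spread is pooled over the 4 gates of the same 8 mice, taken as independent.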

Additional observations from a re-analysis of the deposited data

Results flagged for a closer look

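Of 170 groups of 4 libraries examined for a value set apart from the other 3, 14 held one by Dixon's criterion at the 95% level, where chance gives about 1 in 20. Values are CPM. Among called genes, Tspan13 was low in naive mouse 2 (287.7) and Naa60 low in naive mouse 3 (83.03). In naive mouse 3, Ddx17 (101.1) and Fcho1 (213.5) were high. Ifi27l2a was low in naive mouse 1 (1411) and high in cancer mouse 8 (1134). Cancer mouse 6 was high for Il1rl1 (11), Lgals9 (569.1) and Ccr4 (74.38). Cancer mouse 8 was low for Kmt2a (158.6) and high for mt-Rnr1 (1666) and mt-Rnr2 (4852). Mki67 was high in cancer mouse 7 (34.47), and Tbx21 was above 0 in cancer mouse 5 alone of its group (0.296).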

How the results depend on the processing

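With 4 mice a group, the count of 7 called genes was fragile: RLE size factors gave 7, thinned libraries 9 and the mitochondrial covariate 5, but no low-count filter gave 0 of 31358 genes, only the 8 libraries 2, the GC offset 4, DESeq2 87, and limma-voom 11 both with the replicate block (mouse as random effect) and without it. Leaving out 1 mouse, with its libraries of all 4 gates, gave 0 to 18 calls: 0 without naive mouse 1, 3 or 4 or cancer mouse 7, 1 without naive mouse 2 or cancer mouse 8, 4 without cancer mouse 5 and 18 without cancer mouse 6. For the difference from the other gates, every alternative gave 0 calls except DESeq2 with 23, and the replicate block as a fixed term in edgeR gave 0. The log2 fold change of Crlf2 changed sign with the mitochondrial covariate (0.14) and the GC offset (0.058). That of Il1rl1, which ranged from -2.29 to 1.02 when 1 mouse was left out, did so without naive mouse 4 (-0.15), without cancer mouse 6 (-2.29) and in limma-voom without (-0.82) and with (-0.82) the replicate block. The cause was not tested. Over the alternatives, the interferon list's median ranged from -0.50 to -0.39, that of proliferation from -1.09 to -0.80 and that of AP-1, NR4A and EGR factors from -0.41 to -0.21. For low genes such as Il1rl1, depth limits what could be seen.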
